A study of Mus musculus with 33 samples.

Results

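The genes described here encode enzymes that build pyrimidine nucleotides and enzymes that break pyrimidines down, followed in mouse liver over 11 times after removal of 70% of the organ. There were 10 genes of 18193 with a probe set annotated to a single symbol: Cad, Umps, Dhodh, Uck2 and Ctps for synthesis, and Upp1, Upp2, Dpyd, Dpys and Upb1 for breakdown. They were taken by name from the pathway, and Upp2 was chosen by its measured signal, for its steep drop in these arrays, so its values are a description and carry no test. Each gene was read from its brightest single-symbol probe set, and all 10 passed the filter on dim probe sets. The later groups were livers at 10 times (d, days) after partial hepatectomy, namely 0.25, 0.5 and 0.75 d, then 1, 1.5 and 2 d, then 3 and 4 d, and finally 7 and 14 d, and each was set against livers labelled 0 d. Each time had 3 arrays labelled as biological replicates, 33 in all. No strain, sex, age, genotype, hour of collection or sham operation is named in the labels used here, so what the groups share beyond being mouse liver is not known, and surgery and loss of tissue cannot be told apart.

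Cells obtain uridine nucleotides either by building the ring from glutamine, bicarbonate and aspartate or by phosphorylating uridine that is already made. Cad, a fused enzyme, carries out the opening steps of the new ring, Dhodh oxidises dihydroorotate in mitochondria, Umps finishes UMP, and Ctps aminates UTP to CTP, while Uck2 is a salvage kinase for uridine and cytidine. Breakdown starts when the uridine phosphorylases Upp1 and Upp2 release uracil, which Dpyd reduces, Dpys opens and Upb1 cleaves to beta-alanine. The liver is a main site of this breakdown and of the control of uridine in blood.

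The starts of Upp2 and Cad are shown because the signals of these genes moved the most within their arms, in opposite directions. Each run is the 250 bases before an annotated start, 5′ to 3′ on the plus strand, from RefSeq (GRCm38.p6), with any match to a searched motif in capitals. The Upp2 windows end at separate annotated starts, at chr2:58567084-58567333 and chr2:58754934-58755183, and the Cad window lies at chr5:31054530-31054779.
Upp2, upstream start: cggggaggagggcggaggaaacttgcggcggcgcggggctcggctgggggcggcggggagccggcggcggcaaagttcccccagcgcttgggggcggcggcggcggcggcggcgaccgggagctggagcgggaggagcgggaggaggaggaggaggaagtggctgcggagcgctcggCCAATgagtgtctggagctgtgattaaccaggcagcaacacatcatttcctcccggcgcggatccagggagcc
Upp2, downstream start: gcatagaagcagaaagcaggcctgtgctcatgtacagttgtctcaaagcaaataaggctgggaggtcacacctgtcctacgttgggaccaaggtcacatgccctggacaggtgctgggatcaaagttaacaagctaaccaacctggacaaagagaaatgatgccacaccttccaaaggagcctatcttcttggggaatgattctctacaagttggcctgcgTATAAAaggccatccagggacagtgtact
Cad: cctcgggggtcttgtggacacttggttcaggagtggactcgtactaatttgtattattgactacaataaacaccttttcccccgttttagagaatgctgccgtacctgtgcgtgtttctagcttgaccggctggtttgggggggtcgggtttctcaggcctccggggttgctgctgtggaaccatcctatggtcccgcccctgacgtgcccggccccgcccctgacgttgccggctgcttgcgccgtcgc
The capitals mark a CCAAT box 73 bases before the upstream Upp2 start and a TATA box (TATAAA) 29 bases before the downstream Upp2 start. The upstream Upp2 window is 73.2% G and C, the downstream window 49.2% and the Cad window 58.8%. The search, on both strands and for exact letters, covered an E-box (CACGTG), a D-box (TTATGTAA), a CCAAT box, a TATA box and an HNF1 site. None of these was in the Cad window. Over 32851 annotated windows of this length, 6.02% held the E-box, 0.819% the D-box, 33.8% a CCAAT box, 12.4% a TATA box and 0.00913% the HNF1 site. Windows were at hand for 8 of the 10 genes (12 windows), and among the others Upb1 held a CCAAT box on each strand, 71 and 33 bases before its start, and Umps held a TATA box 178 bases before its start. The probe sets do not tell which Upp2 start was used.

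All values are log2 signals from robust multi-array averaging (RMA), in which a difference of 1 is a doubling. Array medians lay between 5.32 and 5.38. The liver label was borne out by hepatocyte markers: Alb, albumin, read 14.60 to 14.80 and Apoa1 14.29 to 14.53 over the 33 arrays. A description field speaks of cells from fat. Of the 3 adipocyte markers measured, Adipoq, adiponectin, reached a log2 signal of 5 on only 4 arrays and Cidec on 8. Fabp4 went the other way, at 7.08 to 10.57 over the 33 arrays. Replicate 1 at 0.25 d and replicate 3 at 0.5 d correlated least with the other arrays of their time (mean r 0.9727 and 0.9696). Values without them, or ranges with each array left out in turn, are given for some results at those times. A result printed without such a value may still depend on them. The sample numbers of 0.25, 0.5, 0.75 and 1.5 d form a later block than those of the other times and 0 d. Whether those arrays were run apart is not stated in the labels, and block and time cannot be told apart, whereas the remaining times share the block of 0 d. In bulk liver, fewer cells of a type and less RNA per cell cannot be told apart. P-values are limma's, adjusted by Benjamini-Hochberg over 13642 genes, and measure only the spread between the arrays of a time. The same 3 arrays of 0 d enter every comparison with 0 d, so these comparisons are not independent.

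Cad and Ctps rose within the first day and were back near the level of 0 d by 4 d, whereas Dhodh and Uck2 passed the test at no time and Umps was lower once, at 0.25 d. Cad, the fused enzyme that opens the pathway (probe set 1452829_at), read 6.39, 6.10 and 6.52 at 0 d, 6.60, 6.62 and 6.32 at 0.25 d, 7.81, 8.0 and 8.11 at 0.5 d and 7.86, 7.88 and 7.78 at 0.75 d. It then read 7.23, 6.94 and 6.90 at 1 d, 6.78, 6.82 and 6.91 at 1.5 d, 7.06, 7.07 and 6.83 at 2 d and 6.64, 6.68 and 6.57 at 3 d. The last times gave 6.55, 6.10 and 6.24 at 4 d, 6.13, 5.87 and 5.99 at 7 d and 6.36, 5.96 and 6.08 at 14 d. All arrays of 0.5 and 0.75 d lay above every array of the other times, and the 0.25 d arrays still overlapped those of 0 d. At 0.5 d Cad was 1.64 ± 0.13 (SE, n = 3 arrays at each time) higher than at 0 d, or 3.11-fold, with an adjusted p of 4.74e-10 in limma. At 0.75 d it was 1.50 higher, at 1 d 0.69, at 1.5 d 0.50 and at 2 d 0.65, each past the threshold of 0.05. For Cad at 0.5 d the difference was 1.57 without replicate 3 of that time. The call at 1.5 d was lost without replicate 2 of 0 d (difference 0.38, adjusted p 0.0548). Between neighbouring times Cad rose by 1.46 at 0.5 d over 0.25 d (adjusted p 2.09e-08; 16% of all genes rose in that step) and fell by 0.81 at 1 d over 0.75 d (adjusted p 0.00249; 0.579% of all genes fell). The other steps of Cad missed the threshold. A second probe set, 1452830_s_at, rose by 1.58 at 0.5 d and 1.50 at 0.75 d, and 1440857_at stayed between time means of 4.22 and 4.63, near the floor of the array.

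Ctps, which makes CTP (1416563_at), read 7.11, 6.52 and 6.78 at 0 d, 7.63, 7.76 and 7.37 at 0.25 d, 7.49, 7.55 and 8.08 at 0.5 d and 7.55, 7.52 and 7.78 at 0.75 d. It read 7.46, 7.71 and 7.84 at 1 d, 7.39, 7.61 and 7.76 at 1.5 d, 7.89, 7.47 and 7.33 at 2 d and 7.14, 7.03 and 7.08 at 3 d. The later values were 7.02, 6.60 and 6.75 at 4 d, 6.39, 6.59 and 6.30 at 7 d and 6.92, 6.53 and 7.08 at 14 d. All 18 arrays from 0.25 to 2 d lay above the highest array of 0 d, so Ctps was already high at 0.25 d, when Cad overlapped its 0 d arrays. The difference from 0 d was 0.78 at 0.25 d, 0.90 at 0.5 d, 0.81 at 0.75 d, 0.87 at 1 d, 0.78 at 1.5 d and 0.76 at 2 d (SE 0.18 each), with limma's adjusted p between 0.00023 and 0.00245. These 6 calls held in all 16 alternatives run for each. No step between neighbouring later times passed the threshold for Ctps, and at 7 d its difference of -0.38 was not past it either (adjusted p 0.367).

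**Figure D1:**
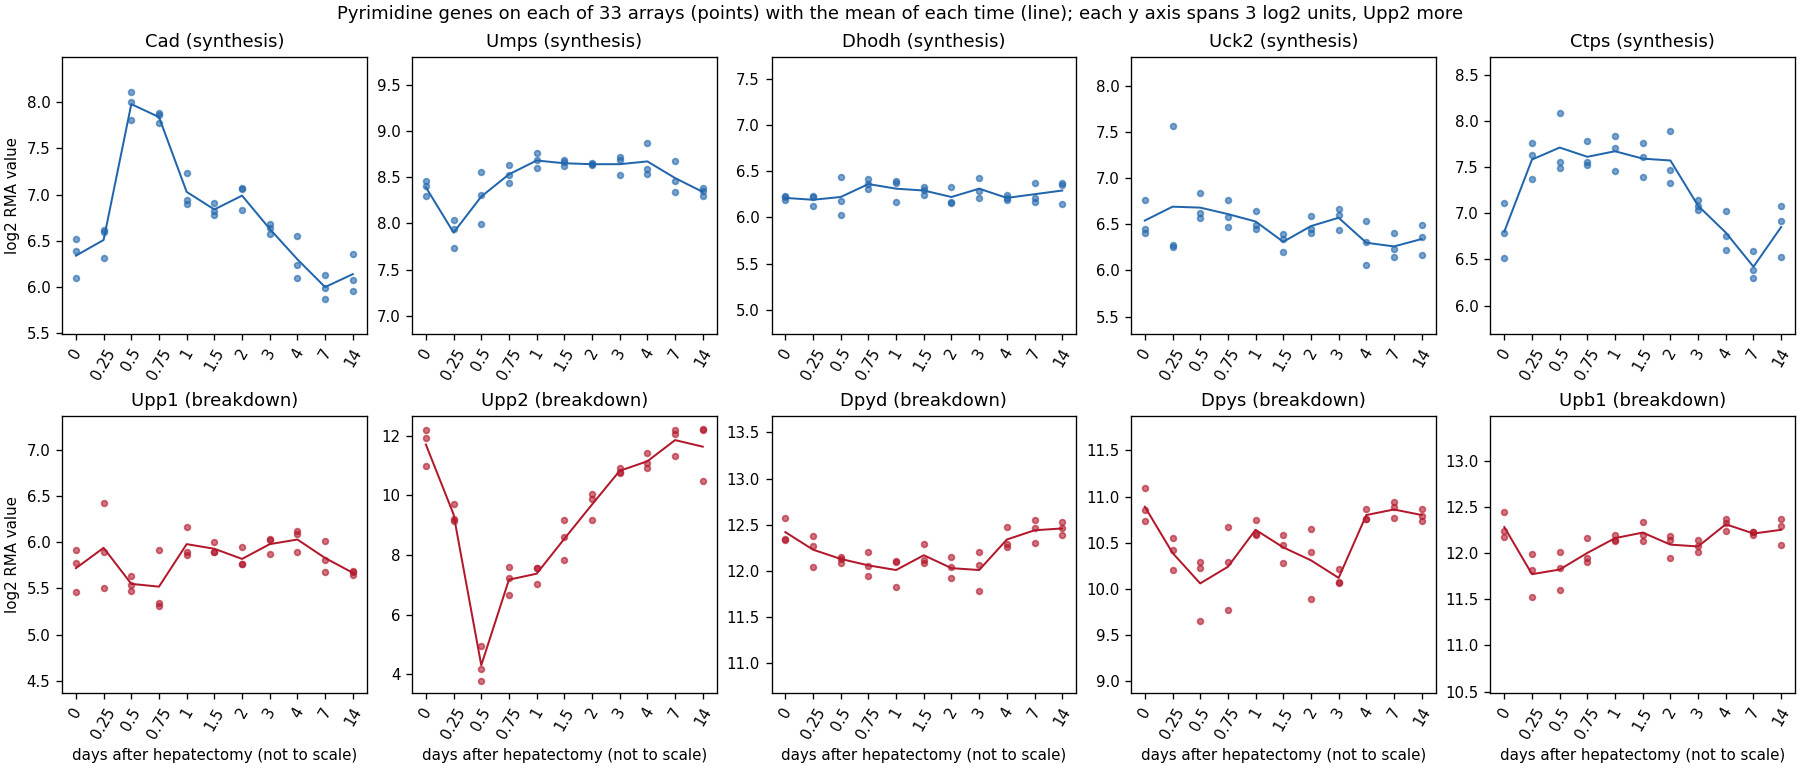
Log2 RMA signal of the 10 genes (synthesis above in blue, breakdown below in red) on each array against the time after partial hepatectomy in days (evenly spaced, not to scale). Points are arrays, 3 at each time, and lines join the means; Upp2 spans 3.78 to 12.23 over the arrays while Dhodh spans 6.03 to 6.44.

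Umps, which completes UMP (1455832_a_at), read 7.94, 8.04 and 7.73 at 0.25 d, against 8.46, 8.30 and 8.40 at 0 d. The groups did not overlap, and Umps was lower at 0.25 d, by -0.48 ± 0.11 (SE) (adjusted p 0.00103). It was 0.38 higher at 0.5 d than at 0.25 d (adjusted p 0.016). Between 1 and 4 d its means were 8.64 to 8.68, against 8.39 at 0 d, with no array overlap at those times and no call (differences of 0.25 to 0.29, adjusted p 0.0695 to 0.192). A filter at a log2 signal of 7, quantile normalization or array weights each brought the difference at 1 d past the threshold (adjusted p 0.0498, 0.0474 and 0.0203). The probe set 1434859_at fell by 0.67 at 0.25 d (adjusted p 0.000784 over 23892 probe sets). At 1 d its difference was 0 (adjusted p 0.988), so at that time it did not show the higher signal of the probe set used. At 1.5, 2, 3 and 4 d 1434859_at was higher than at 0 d, by 0.35, 0.32, 0.23 and 0.46, without a call (adjusted p 0.104 to 0.314). The dimmer 1451445_at was 0.16 to 0.44 higher from 1 to 4 d, also without a call.

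Dhodh, the mitochondrial dehydrogenase of the pathway (1417581_at), ranged over only 0.17 between its time means, from 6.19 at 0.25 d to 6.36 at 0.75 d, against a median range of 0.54 over all genes tested. Its moderated F-test over the 10 differences gave an adjusted p of 0.699. Its other probe set, 1417582_s_at, fell by 0.45 at 0.25 d (adjusted p 0.0116) and was 0.44 higher at 1 d (adjusted p 0.031), so the probe sets of Dhodh did not give the same picture. Uck2, the salvage kinase (1448604_at), had time means of 6.26 to 6.69 and an F-test adjusted p of 0.403. At 0.25 d it read 7.56, 6.28 and 6.25, against 6.76, 6.45 and 6.41 at 0 d. The high value was on replicate 1, and the difference for Uck2 at 0.25 d, 0.16 with all arrays, was -0.28 without it (adjusted p 0.104). Another Uck2 probe set, 1457980_x_at, was 0.34 higher at 0.25 d (adjusted p 0.00666) and 0.28 higher at 0.75 d (adjusted p 0.0391). The brighter 1439740_s_at and 1426909_at were called at no time. Their differences were 0.11 each at 0.25 d, and 0 and -0.02 at 0.75 d. The probe sets 1417137_at and 1439741_x_at, with means of 4.23, were too dim to test.

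Among the breakdown genes, Upp2, chosen for its drop, read far below 0 d for the first days, while Dpyd, Dpys and Upb1 were lower by less than 1 log2 unit during parts of the first 3 days. Upp2, a uridine phosphorylase (1424969_s_at), read 11.93, 12.20 and 10.97 at 0 d, 9.22, 9.14 and 9.71 at 0.25 d, 3.78, 4.17 and 4.95 at 0.5 d and 7.23, 7.60 and 6.67 at 0.75 d. It read 7.02, 7.55 and 7.55 at 1 d, 9.16, 8.61 and 7.84 at 1.5 d, 9.17, 10.03 and 9.87 at 2 d and 10.79, 10.91 and 10.75 at 3 d. It reached 11.42, 10.90 and 11.09 at 4 d, 12.18, 12.06 and 11.31 at 7 d and 10.47, 12.23 and 12.20 at 14 d. No array from 0.25 to 3 d overlapped those of 0 d, the arrays of 0.5 d lay below those of all other times, and overlap with 0 d returned from 4 d on. The mean difference from 0 d was -2.35 at 0.25 d, -7.40 at 0.5 d, -4.54 at 0.75 d and -4.33 at 1 d. It was then -3.17 at 1.5 d, -2.02 at 2 d, -0.89 at 3 d and -0.57 at 4 d. At 0.5 d the mean signal was 0.591% of that at 0 d, but all 3 arrays were then under a log2 signal of 5, where RMA signals are close to the array floor, so the size of the drop is uncertain there. At 0.25 d, above that range, the signal was 19.7% of that at 0 d and at 1 d it was 4.97%. Without replicate 3 of 0.5 d the difference of Upp2 at 0.5 d was -7.73, and without replicate 3 of 0 d that at 0.25 d was -2.71.

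The Upp2 probe set 1451548_at ran alongside, with a difference of -7.48 at 0.5 d. A dimmer one, 1460059_at, had means of 4.31 at 0.5 d and 4.09 at 1 d, against 7.54 at 0 d, with differences of -2.62 at 2 d and -1.03 at 4 d. All 3 probe sets had means below those of 0 d from 0.25 to 4 d. The brighter probe sets had their lowest mean at 0.5 d and 1460059_at at 1 d.

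Dpys, the dihydropyrimidinase (1436291_a_at), read 10.85, 10.74 and 11.09 at 0 d, 10.20, 10.55 and 10.42 at 0.25 d, 10.23, 10.29 and 9.65 at 0.5 d and 10.29, 10.67 and 9.77 at 0.75 d. It read 10.58, 10.75 and 10.60 at 1 d, 10.58, 10.48 and 10.28 at 1.5 d, 10.40, 10.65 and 9.89 at 2 d and 10.08, 10.06 and 10.22 at 3 d. From 4 to 14 d its arrays lay between 10.74 and 10.94. All arrays of 0.25, 0.5, 0.75, 1.5, 2 and 3 d lay below those of 0 d, and those of 1 d overlapped them. The difference at 1.5 d was not called (-0.45, adjusted p 0.0822), but was with array weights (adjusted p 0.0367) and with only the 6 arrays compared (adjusted p 0.0426). The difference from 0 d was -0.84 ± 0.18 (SE) at 0.5 d (adjusted p 0.000713) and -0.77 at 3 d (adjusted p 0.0031), and both calls held in all 16 alternatives. With each array left out in turn, the difference at 0.5 d ran from -0.95 to -0.63. The calls at 0.25 d (-0.51, adjusted p 0.0248), 0.75 d (-0.65, adjusted p 0.0103) and 2 d (-0.58, adjusted p 0.0209) were each lost without replicate 3 of 0 d (adjusted p 0.111, 0.0576 and 0.0911). The call at 0.25 d was also lost without replicate 1 of 0.25 d (adjusted p 0.113), and those at 0.75 and 2 d without replicate 3 of their own time (adjusted p 0.118 and 0.167). Between neighbouring times Dpys passed the threshold once, being 0.68 higher at 4 d than at 3 d (adjusted p 0.0252; 3.03% of all genes rose in that step). The dimmest of the 3 Dpys probe sets, 1425689_at, had means of 5.57 at 0.5 d and 5.94 at 3 d, against 7.66 at 0 d, which is a difference of -2.09 and -1.72 (adjusted p 0.000506 and 0.00596).

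**Figure D2:**
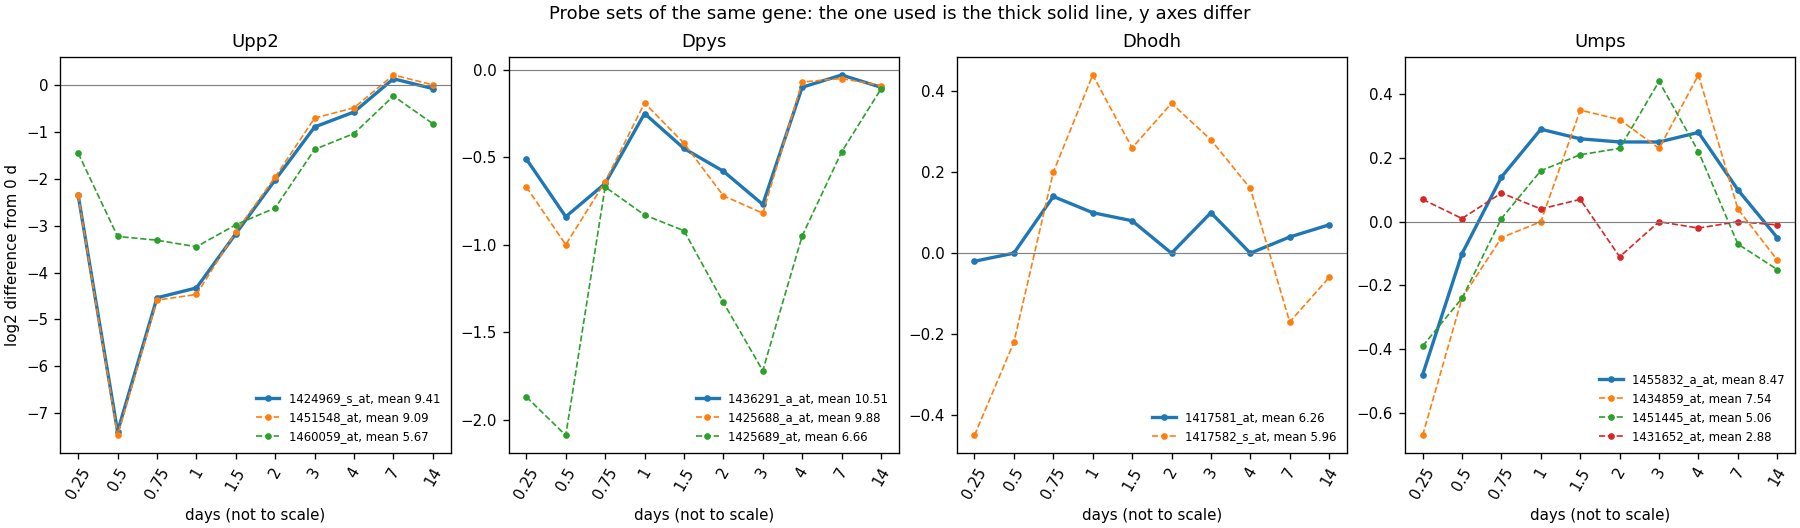
Log2 difference from 0 d of every single-symbol probe set of Upp2, Dpys, Dhodh and Umps, against time in days; the thick line is the probe set used, and the y axes differ. At 0.5 d Upp2 reads -7.40, -7.48 and -3.23 by probe set and Dpys -0.84, -1.0 and -2.09, and the Dhodh lines part at 0.25 d (-0.02 and -0.45).

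Dpyd, the reductase usually held to limit the rate of breakdown (1427946_s_at), kept a strong signal throughout, between 11.78 and 12.57. It was lower than at 0 d by small amounts at 0.5 d (-0.29), 0.75 d (-0.36), 1 d (-0.41), 2 d (-0.38) and 3 d (-0.41; SE 0.11 each), with adjusted p between 0.00973 and 0.0399. At each of these times its arrays lay below those of 0 d, which read 12.34, 12.57 and 12.35. All 5 calls were lost without replicate 2 of 0 d (adjusted p 0.0648 to 0.186), and that at 0.5 d was lost in 9 of 16 alternatives. Leaving out replicate 1 or 3 of 0.75 d, replicate 1 of 1 d, replicate 3 of 2 d or replicate 2 of 3 d also ended the call of that time (adjusted p 0.0579, 0.105, 0.0881, 0.0655 and 0.0953). The second probe set, 1427945_at, was lower too, by -0.50 at 0.5 d and -0.57 at 1 d (adjusted p 0.00899 and 0.00768). Upb1, which releases beta-alanine (1460244_at), read 11.52, 11.99 and 11.81 at 0.25 d and 12.01, 11.84 and 11.60 at 0.5 d, against 12.24, 12.44 and 12.17 at 0 d. Both times lay wholly below 0 d, with differences of -0.51 ± 0.11 (SE) at 0.25 d (adjusted p 0.00055) and -0.46 at 0.5 d (adjusted p 0.00163). The call at 0.5 d was lost with only the 6 arrays compared (adjusted p 0.0601). The difference at 0.75 d, -0.28, was not called (adjusted p 0.0643), but was with a filter at a log2 signal of 7 (0.0472), array weights (0.0223) and without replicate 2 of 0.75 d (0.0344). Upp1, the other uridine phosphorylase (1448562_at), read 5.31 to 6.42 over the arrays, overlapped 0 d at every time and was called at none, with differences from -0.20 to 0.31. Its difference at 0.25 d was 0.22 (adjusted p 0.288), and 0.44 without replicate 3 of 0.25 d (adjusted p 0.0306). The signals of Upp1 lay close to the array medians of 5.32 to 5.38, so small changes may be hidden.

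Counted over the 10 later times and leaving Upp2 out, the synthesis genes gave 11 calls higher and 1 lower of 50 possible, and the breakdown genes 0 higher and 12 lower of 40. Over all genes tested 8.25% of such calls were higher and 10.6% lower. The 11 higher calls were all from Cad and Ctps, so the other 3 synthesis genes gave none, and of the breakdown calls 5 were from Dpyd, 5 from Dpys and 2 from Upb1. At an unadjusted limma p under 0.05 the synthesis genes gave 17 higher and 3 lower, and the breakdown genes 0 higher and 15 lower, where 13.7% of all such comparisons were higher and 16.7% lower. Without replicate 2 of 0 d the breakdown genes gave 7 lower calls. Of the 5 synthesis genes, 1 was higher at 0.25 d (17.2% of all genes), 2 at 0.5 d (15.8%), 2 at 0.75 d (9.84%), 2 at 1 d (8.16%), 2 at 1.5 d (8.33%), 2 at 2 d (11%) and 0 at 3 d (10.2%). Of the 4 tested breakdown genes, 2 were lower at 0.25 d (28.8% of all genes), 3 at 0.5 d (19.4%), 2 at 0.75 d (12.7%), 1 at 1 d (9.55%), 0 at 1.5 d (11.7%), 2 at 2 d (11.6%) and 2 at 3 d (10.9%). Umps was the 1 synthesis gene lower at 0.25 d. At 4, 7 and 14 d limma called none of the 9 genes in either direction, where 1.88%, 0.125% and 0.0147% of all genes were higher and 0.975%, 0.0586% and 0% lower. At an unadjusted p under 0.05, 1 synthesis gene was higher at 4 d, 2 were lower at 7 d and none passed at 14 d. At that threshold 9.3% of all genes were higher and 7.39% lower at 4 d, 5.93% and 6.98% at 7 d, and 6.03% and 7.67% at 14 d. By the F-test over all 10 differences 6 of the 9 varied (Cad, Ctps, Umps, Dpyd, Dpys and Upb1), beside 69.4% of all genes tested, so a share of that size does not set these genes apart.

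**Figure D3:**
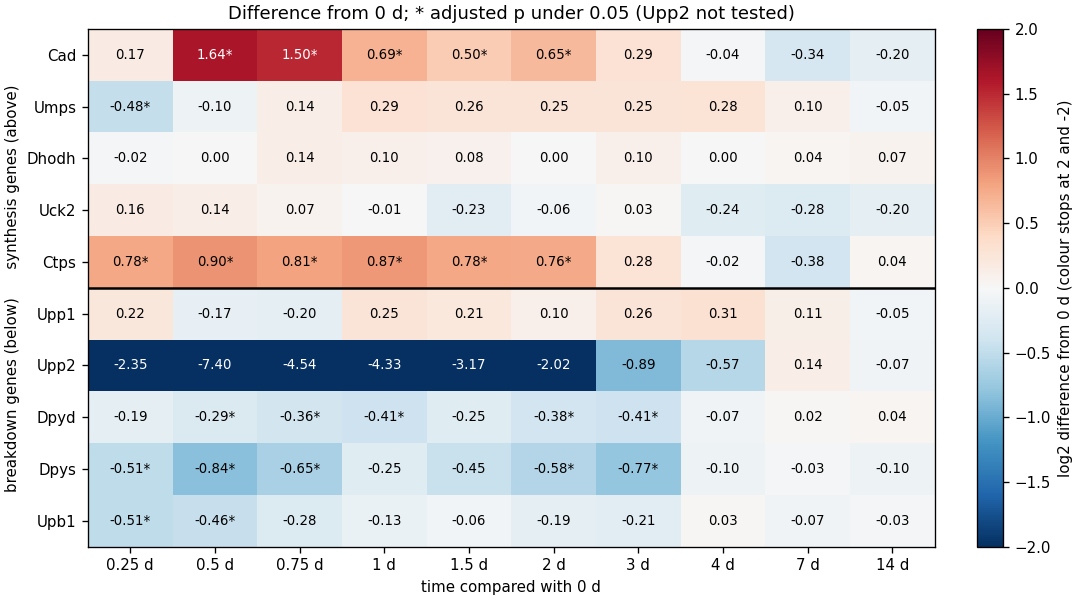
Log2 difference from 0 d for the 10 genes (rows, synthesis above the line and breakdown below it) at each later time (columns), with the value in each cell, an asterisk where limma's adjusted p is under 0.05, and colour that stops at 2 and -2. Upp2 carries no test; the asterisks of the synthesis rows are those of Cad and Ctps, plus Umps at 0.25 d.

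The median difference of the 5 synthesis genes was 0.14 at 0.5 d and 0.29 at 1 d, beside 0 and -0.01 over all genes tested. That of the 4 tested breakdown genes was -0.38 at 0.5 d, -0.19 at 1 d and -0.31 at 3 d. To set the arms side by side, the mean change from 0 d of the 5 synthesis genes was taken on each array and that of the breakdown genes subtracted, with no test. With Upp2 left out, the synthesis mean at 0.5 d was 0.52 ± 0.08 and the breakdown mean -0.44 ± 0.15, a gap of 0.96 ± 0.19 (SD, n = 3). That gap was 0.37 at 0.25 d, 0.91 at 0.75 d, 0.52 at 1 d, 0.42 at 1.5 d, 0.59 at 2 d and 0.47 at 3 d. It was -0.04 at 4 d, -0.18 at 7 d and -0.03 at 14 d. It was above 0 on all arrays from 0.25 to 3 d, the lowest being 0.22 at 0.25 d. At 0.5 d its synthesis side came mostly from Cad and Ctps, with differences of 1.64 and 0.90. Those of Umps, Dhodh and Uck2 were -0.10, 0 and 0.14. A gap without Cad and Ctps was not taken. With Upp2 the gap was 0.79 at 0.25 d, 2.35 at 0.5 d, 1.74 at 0.75 d, 1.36 at 1 d, 1.02 at 1.5 d, 0.94 at 2 d and 0.60 at 3 d. Most of the gap at 0.5 d with Upp2 thus came from a gene chosen for its drop, read near the array floor at that time, so its size supports nothing about the arms.

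**Figure D4:**
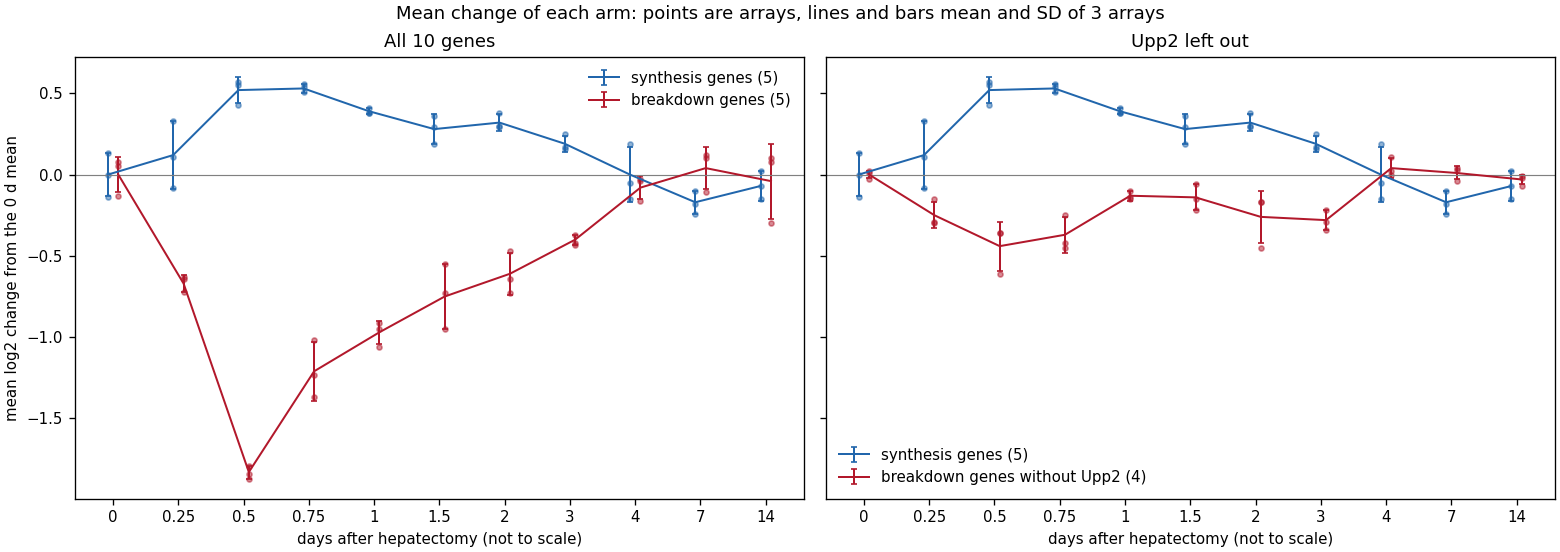
Mean log2 change from the 0 d mean of the 5 synthesis genes (blue) and of the breakdown genes (red), against time in days, with all 5 breakdown genes on the left and with Upp2 left out on the right. Points are arrays and bars the SD of 3 arrays; at 0.5 d the separation is 0.96 without Upp2, and the 2.35 with it includes the drop for which Upp2 was chosen.

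The genes whose time means correlated most with those of Upp2 over the 11 times were Slc25a10 and Cisd1 (r = 0.966 each), Thrsp (0.961), Akr1c12 (0.96) and Sp100 (0.959). Thrsp read 8.16 at 0.5 d, against 13.04 at 0 d, and the others fell less. At 0.5 d Cisd1 read 10.92, against 12.17 at 0 d, and Slc25a10 9.47, against 10.33. Akr1c12 read 9.44, against 10.37, and Sp100 4.93, against 5.72. For Cad the most alike were Aimp2 (0.984), Slc39a7 and Tmem214 (0.982 each), Hdlbp (0.977) and Srp9 (0.976). Hdlbp read 11.05 at 0.5 d, against 10.46 at 0 d, so its swing was smaller than that of Cad. Upp2 and Cad had r = -0.93 over the same means, and Upp2 and Ctps -0.83. Among the breakdown genes Upp2 correlated with Dpys at 0.68, with Upb1 at 0.65, with Dpyd at 0.64 and with Upp1 at 0.40. These values describe 11 means that share their arrays, and those of the genes most alike are the highest of many genes searched.

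Enzymes around the pathway were taken from lists of related genes. Of 13 salvage genes 11 were tested, and 2 were higher and 4 lower at 0.25 d (17.2% and 28.8% of all genes), 4 higher and 4 lower at 0.5 d (15.8% and 19.4%), and 5 higher and 2 lower at 2 d (11% and 11.6%). The counts at 0.25 d are near those shares. Their median difference at 0.5 d was 0.23. Cda, which deaminates cytidine to uridine, read a mean of 8.89 at 0.5 d, against 7.31 at 0 d, and rose by 1.58 ± 0.16 (SE; adjusted p 3.38e-08). Tk1, the thymidine kinase of dividing cells, read 5.26 at 0.5 d, against 8.67 at 0 d (-3.42, adjusted p 1.51e-09), and was within 0.10 of 0 d at 2 d. Dck, the deoxycytidine kinase, read 5.45 at 0.25 d and 9.0 at 2 d, against 7.05 at 0 d (-1.60 and 1.95, adjusted p 0.000385 and 0.000114). Cmpk2, a mitochondrial nucleotide kinase, fell by 1.50 at 0.5 d (adjusted p 0.0256), a call that was lost without replicate 3 of 0 d (adjusted p 0.147) or of 0.5 d (adjusted p 0.12).

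Of 12 genes for thymidylate and deoxynucleotide supply 10 were tested. At 0.5 d 0 were higher and 8 lower (median difference -0.89), beside 15.8% and 19.4% of all genes, and at 2 d 4 were higher and 1 lower (median -0.02), beside 11% and 11.6%. Rrm2 and Rrm1, the subunits of ribonucleotide reductase, averaged 10.59 and 9.33 at 2 d, against 7.32 and 7.25 at 0 d, differences of 3.26 and 2.07 (adjusted p 1.6e-05 and 4.98e-08). At 0.5 d Rrm2 fell by 1.94 (adjusted p 0.00227), and the difference of Rrm1, -0.10, was not called (adjusted p 0.734). Dut, which removes dUTP, fell by 1.69 at 0.25 d and was 1.65 higher at 2 d (adjusted p 1.97e-06 and 6.91e-06). Shmt1, a folate enzyme that feeds thymidylate synthesis, fell by 1.54 at 0.5 d (adjusted p 2.02e-05). With each array left out in turn, that difference ran from -1.77 to -1.09. Rrm1, Rrm2 and Dut were called higher at 1.5, 2 and 3 d, whereas the highest means of Cad were at 0.5 and 0.75 d.

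Downstream of Upb1, beta-alanine and its methyl relative are handled by Abat, Aldh6a1 and Agxt2. Of these 3, 0 were higher and 2 lower at 0.5, 0.75, 1.5, 2 and 3 d, where 10.9% to 19.4% of all genes were lower. Abat averaged 10.58 at 2 d, against 11.40 at 0 d (-0.82 ± 0.17 SE, adjusted p 0.000671), and Aldh6a1 11.38 at 3 d, against 11.89 at 0 d (-0.51 ± 0.09 SE, adjusted p 0.000205). Both were back within 0.02 of 0 d at 7 d, and Agxt2 was not called at any time.

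Of the 7 nucleotidases, which return nucleotides to nucleosides, 0 were higher and 4 lower at 0.25 d (17.2% and 28.8% of all genes), and 4 higher and 0 lower at 3 d (10.2% and 10.9%). At 0.25 d Nt5c3 fell by 0.99 and Nt5c fell by 0.82 (adjusted p 4.77e-05 and 1.08e-05). Nt5e, an enzyme of the cell surface, was 1.17 higher at 3 d (adjusted p 0.00685), and Entpd5 0.49 higher (adjusted p 0.0113). The arrays of Nt5e at 3 d overlapped those of 0 d, and both calls were lost without replicate 2 of 0 d (adjusted p 0.0788 and 0.105). Of 3 tested nucleoside transporters of 6 listed, 0 were higher and 2 lower at 0.25 d, beside 17.2% and 28.8% of all genes. Slc29a1, the main equilibrative carrier, averaged 8.06 at 0.25 d, against 9.89 at 0 d (-1.83, adjusted p 9.55e-06), and was within 0.22 of 0 d at 0.75 d. With each array left out in turn, its difference at 0.25 d ran from -2.05 to -1.45. Slc29a3 fell by 0.35 at 0.25 d (adjusted p 0.0121; 0.0621 without replicate 3 of 0.25 d).

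Of 12 tested genes for phosphoribosyl pyrophosphate and purine synthesis, 1 was higher and 6 lower at 0.25 d (17.2% and 28.8% of all genes), and 3 higher and 5 lower at 0.5 d (15.8% and 19.4%; median difference -0.19). Ppat, the committed step of purine synthesis, averaged 6.86 at 0.25 d, against 7.91 at 0 d (-1.05, adjusted p 0.000196). Prps2, which makes the ribose donor shared by both pathways, fell by 1.39 at 0.5 d (adjusted p 2.3e-06), and Adssl1 fell by 0.84 (adjusted p 2.04e-05). With each array left out in turn, the difference of Prps2 at 0.5 d ran from -1.59 to -1.02. Pfas was 0.52 higher at 2 d (adjusted p 0.0189), a call that was lost when replicate 1 or 3 of 0 d, or replicate 1 or 2 of 2 d, was left out (adjusted p 0.107, 0.0923, 0.0919 and 0.0725). Of 8 tested purine breakdown genes 3 were higher and 2 lower at both 0.25 and 0.5 d, beside the same shares of all genes. Ada, adenosine deaminase, averaged 6.18 at 0.25 d, against 4.47 at 0 d (a difference of 1.71), and Pnp, purine nucleoside phosphorylase, was 1.15 higher (adjusted p 0.00073). Every array of Ada at 0, 7 and 14 d was under a log2 signal of 5, close to the array floor. Ada thus passed the filter only through times when it was higher, so its difference is a description and its size is uncertain. It is among the 3 genes counted higher at 0.25 and 0.5 d, so those counts share this limit. Uox, urate oxidase, averaged 12.41 at 1 d, against 13.54 at 0 d (-1.12, adjusted p 7.11e-05). Ampd2 was 0.75 higher at 0.5 d (adjusted p 0.0354), and leaving out any array of 0 d or 0.5 d ended that call (adjusted p 0.0555 to 0.0875). Among others in these lists, Tymp, Slc28a1, Slc28a2, Impdh2, Pnp2 and Urad were not analysed here, and Dctd, Tyms and Slc28a3 were too dim to test.

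**Figure D5:**
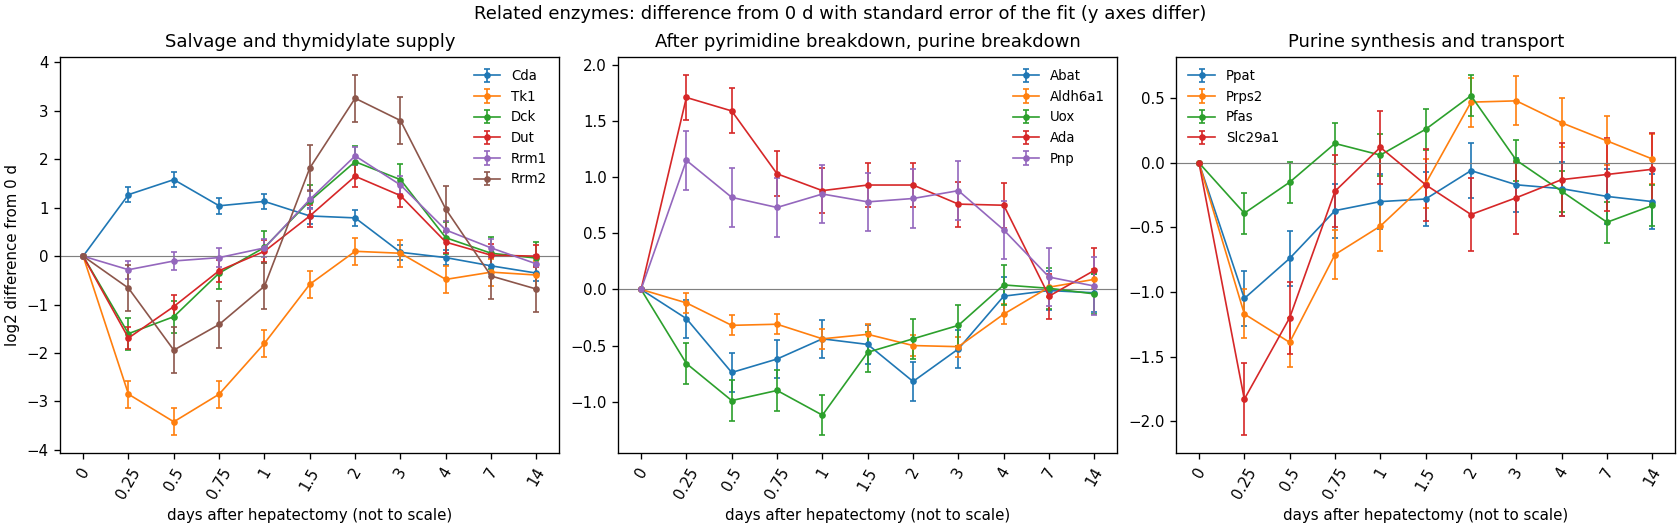
Log2 difference from 0 d (y axes differ) of related enzymes against time in days, with the standard error of the fit; 0 d is drawn at 0 without a bar. Cda is highest at 0.5 d (1.58), Rrm2 at 2 d (3.26) and Ada at 0.25 d (1.71), and Slc29a1 is lowest at 0.25 d (-1.83). All Ada arrays of 0 d were under a log2 signal of 5.

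Other gene lists moved at the same times, and their part in these results was not tested. Over all genes tested, 17.2% were higher and 28.8% lower at 0.25 d, and 15.8% and 19.4% at 0.5 d. At 2 d 11% were higher and 11.6% lower, and at 3 d 10.2% and 10.9%. A count below that is near those shares does not set its list apart. The summed linear signal of 12 clock genes was 1660 to 3260 at 0.25 d and 1830 to 2720 at 0.5 d, against 3270 to 8290 at 0 d, with 2 higher and 5 lower at 0.25 d. Dbp, a clock output factor, averaged 6.63 at 0.5 d, against 10.35 at 0 d (-3.72, adjusted p 0.00133), and none of the 12 was called at 2 d. The sum of 4 tested proliferation genes was 117 to 129 at 0.5 d, against 228 to 417 at 0 d, with 3 lower, and 1210 to 5370 at 2 d, with 4 higher. Myc averaged 7.02 at 0.5 d, against 7.63 at 0 d, and was called at no time (difference -0.60, adjusted p 0.344). The 7 hepatocyte markers summed to 0.955 to 1.01 times their level of 0 d, but that sum is led by Alb, Ttr and Apoa1, which read 14.2 to 14.80, near the top of the array's range. Of single hepatocyte markers 2 were higher and 1 lower at 0.25 d, 1 was lower at 0.5 d and 1 at 3 d, where Pck1 fell by 0.87 (adjusted p 0.0126). The 4 measured neutrophil and monocyte markers summed to 276 to 750 at 0.5 d, against 120 to 145 at 0 d (2 higher), and the 3 adipocyte markers to 476 to 2430, against 159 to 475 (2 higher). At 0.25 d the adipocyte markers summed to 1540 to 2010 (2 higher). The 6 Kupffer cell and macrophage markers summed to 997 to 2110 at 0.5 d, against 1940 to 2770 at 0 d (1 higher, 2 lower; Marco 1.92 and Clec4f -1.20), and to 4870 to 6400 at 3 d (4 higher). The 5 sinusoidal endothelial markers summed to 1270 to 1650 at 0.5 d, against 1370 to 1640 at 0 d (1 higher, 2 lower; Lyve1 1.51 and Kdr -1.08). The 5 stellate cell and fibroblast markers summed to 3020 to 3240 at 0.5 d, against 2230 to 4700 at 0 d (1 higher, 1 lower; Dcn 0.60 and Col3a1 -2.37). The 4 bile duct markers summed to 211 to 302 at 0.5 d, against 151 to 206 at 0 d (1 higher), and of 4 tested lymphocyte markers none was called at 0.25, 0.5 or 3 d. RMA signals have no 0. Of the defining markers Adipoq reached a log2 signal of 5 on 4 arrays, Cidec on 8 and Krt7 of bile duct cells on 3. These markers passed the filter only through those few arrays, so the counts of the adipocyte and bile duct lists are descriptions.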

How the data were processed

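The deposited values were log2 signals that the authors made by RMA, as named in the notes on processing that the submitters gave, without a version; the labels' protocols give Trizol RNA from liver, biotin labelling and Affymetrix mouse arrays. RMA makes the distributions of arrays alike, so a change shared by most genes cannot be seen and differences near the floor are compressed. Arrays have no read depth, and the 3 arrays at each of 11 times limit the precision.

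Of 45101 probe sets, 34945 carried a single symbol in the platform annotation. The probe set with the highest mean stood for each of 18193 genes, and the 13642 with a log2 signal of at least 5 on at least 3 arrays were fitted with limma 3.58.1 in R 4.3.3, with a mean for each time over all 33 arrays. Each later time was compared with 0 d and with the time before it, two-sided, with Benjamini-Hochberg adjustment within each comparison and a threshold of 0.05. A p for a second probe set of a gene was adjusted over 23892 probe sets. The steps were tested on simulated data. The 10 genes, the related lists and the markers were chosen with earlier results of these data known. All 10 genes are named, and of each related list up to 4 called genes with the largest differences. Sums of marker lists are of linear signals. Replicate numbers were not used as pairs: same-numbered arrays of different times had a median correlation of deviations of 0.02, against -0.01 for other pairs. Alternatives were other filters (none, or a log2 signal of 7), averaging the probe sets of each gene, quantile and median scaling, a trend with robust prior, array weights, a replicate block, only the 6 arrays compared, a joint adjustment and each array left out. Plots used Python 3.11.15 and matplotlib 3.10.9.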

Additional observations from a re-analysis of the deposited data

How the results depend on the processing

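No call on the 9 tested genes changed direction under an alternative. Gaps are given as synthesis minus breakdown, on the log2 scale, and include Upp2 unless stated otherwise. With all probe sets of each gene averaged, the synthesis genes gave 2 lower calls in place of 1, and the gap was 2.03 at 0.5 d and 1.25 at 1 d. With only the 6 arrays compared, and so a smaller sample for the spread, the breakdown genes gave 5 lower calls in place of 12. Without Upp2 the gap was 0.37 at 0.25 d, 0.96 at 0.5 d, 0.91 at 0.75 d, 0.52 at 1 d, 0.42 at 1.5 d, 0.59 at 2 d and 0.47 at 3 d. The median of the genes in place of the mean, with Upp2 kept in, also changed the gap. It was then 0.60, 0.50, 0.54, 0.52 and 0.64 at 0.5, 0.75, 1, 1.5 and 2 d and -0.30 at 7 d.

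Leaving out each array in turn gave 7 to 13 lower and 0 to 1 higher calls for the breakdown genes, the 7 without replicate 2 of 0 d and the 1 without replicate 3 of 0.25 d. The synthesis genes gave 10 to 13 higher calls and 1 lower. Leaving Upp2 out was planned, but with its drop already known. With Upp2 left out the gap ran from 0.24 to 0.44 at 0.25 d, 0.86 to 1.04 at 0.5 d, 0.85 to 0.97 at 0.75 d and 0.42 to 0.54 at 3 d. With Upp2, whose drop was what chose it, the gap ran from 0.65 to 0.90 at 0.25 d, 2.24 to 2.42 at 0.5 d, 1.63 to 1.83 at 0.75 d, 1.25 to 1.43 at 1 d, 0.88 to 1.17 at 1.5 d and 0.83 to 1.02 at 2 d. It ran from 0.49 to 0.66 at 3 d, -0.03 to 0.14 at 4 d, -0.32 to -0.14 at 7 d and -0.16 to 0.09 at 14 d.

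With the replicate number as a replicate block the counts stayed at 11 higher and 1 lower for synthesis and 12 lower for breakdown. No other call changed. Each replicate number occurs once at every time, so a block can change only the spread. The differences and the gap cannot move with it. Of the 33 arrays, 15 were closest on average to arrays of their own number. Over all genes, 3702 were called at 0.25 d with only the 6 arrays compared and 6265 in the full fit, 2443 and 4808 at 0.5 d, 1663 and 3074 at 2 d, 160 and 390 at 4 d, 0 and 25 at 7 d and 0 and 2 at 14 d. A joint adjustment gave 954 at 4 d, 567 at 7 d and 537 at 14 d. At 7 d array weights gave 12 and quantile normalization 16, and at 14 d array weights gave 12 and a common array median 7; no filter and the filter at 7 gave 0 at 14 d. Signal near the array floor limits what can be said of Upp2 at 0.5 d.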
